A study of Mus musculus with 6 samples.

Results

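Wnt ligands, their receptors and the secreted proteins that modulate them were followed in keratinocytes of K14ΔNLef1 transgenic and wild type mice. The members were chosen by gene symbol: every gene whose symbol is Wnt, Fzd, Rspo, Dkk or Sfrp followed by a number, and Lrp5, Lrp6, Wif1, Frzb, Porcn, Ror1, Ror2, Ryk, Apcdd1, Kremen1 and Kremen2, without Wnt5a and Rspo3, both of which passed the test used below. By this rule 43 of the 11280 genes with named probe sets were members. The same rule covers Apcdd1, Dkk4, Fzd9, Rspo1, Rspo2, Rspo4 and Wnt9a, which were not analysed here. A total of 3 arrays were K14ΔNLef1 and 3 were wild type, each a biological replicate of unfractionated keratinocytes from back skin of female mice on a C57BL6/CBA background, aged 9.5 weeks. The transgene puts ΔNLef1, a form of the transcription factor Lef1 without its N terminus, under the keratin 14 promoter, which is active in basal keratinocytes of the epidermis and hair follicle. The extraction protocol speaks of cell sorting although the samples are labelled unfractionated, and the labels do not say whether each sample is 1 mouse, so the p-values measure the spread between these samples.

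In canonical Wnt signalling, a lipid-modified Wnt protein binds a Frizzled receptor together with Lrp5 or Lrp6, beta-catenin then accumulates, and it activates genes bound by Lef1 or Tcf factors. The N terminus of Lef1 is the part that binds beta-catenin. Dickkopf proteins and Kremen receptors act on the Lrp co-receptors, Sfrp proteins, Frzb and Wif1 bind Wnt proteins outside the cell, and Ror1, Ror2 and Ryk are receptors of other Wnt branches. In skin these signals are known for starting hair follicle formation and hair growth.

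The arrays were exon arrays, on which the members were read by 324 probe sets, from 2 to 26 for each gene. Each gene value below averages the log2 intensities of the probe sets for that gene, and a difference is K14ΔNLef1 minus wild type on that log2 scale. Lef1, the gene of the transgene, had 11.11, 11.13 and 11.24 on the K14ΔNLef1 arrays and 5.81, 7.02 and 6.26 on the wild type arrays. Median intensity ran from 154.2 to 203.2 on the K14ΔNLef1 arrays and from 190.2 to 199.8 on the wild type arrays, with K14ΔNLef1 replicate 1 the lowest. The 7 basal keratinocyte markers averaged 11.07, 11.28 and 11.445 on the K14ΔNLef1 arrays and 11.452, 11.52 and 11.54 on the wild type arrays, lower on each K14ΔNLef1 array. Of the 7 markers 1 was higher, Krt14 by 0.03, and Krt15 had the lowest difference, -0.36. All 7 are bright, and their mean difference was -0.24. Over all genes at or above the median gene in intensity, the median difference was -0.20. The 5 measured sebocyte markers averaged 7.30, 7.45 and 7.76 on the K14ΔNLef1 arrays and 6.99, 7.26 and 7.24 on the wild type arrays. These averages were higher on each K14ΔNLef1 array, with 3 of the 5 markers higher, Pparg the most by 1.05. T cell markers (6 of 8 listed were measured) averaged from 8.13 to 10.06 on the K14ΔNLef1 arrays and from 7.96 to 8.88 on the wild type arrays, and Langerhans cell markers (6 of 7) from 7.46 to 8.97 on the K14ΔNLef1 arrays and from 7.07 to 7.95 on the wild type arrays. No gene of these lists passed the test. In a bulk sample, more or fewer cells of a type and more or less RNA per cell cannot be told apart. Whether differences in cell makeup had a part in the values below was not tested.

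None of the 43 members passed the test at an adjusted p of 0.05 (limma, two-sided, Benjamini-Hochberg over all genes), where 1.16% of all genes passed. The members nearest to the threshold were the ligands Wnt7b and Wnt3, which were lower on every K14ΔNLef1 array than on any wild type array, and Kremen2, Wif1, Ror1 and Fzd10, which were higher on every K14ΔNLef1 array. These 6 members, or 13.95% of the 43, had an unadjusted p at or under 0.05, beside 11.8% of all genes. The genotypes did not overlap for 8 members, 5 higher and 3 lower, which is 18.6% of the 43 beside 18.7% of all genes. Both shares are near the background. They hold for a set that leaves out Wnt5a and Rspo3, which passed and whose genotypes did not overlap. With both genes included the shares would be higher. Without K14ΔNLef1 replicate 1, 16 members had no overlap beside 30.8% of all genes, and without K14ΔNLef1 replicate 3 it was 15 beside 34%. Without K14ΔNLef1 replicate 2 it was 11 beside 27.4%, and without wild type replicate 2 it was 9 beside 28.5%. Without wild type replicate 1 or 3 it was 12, beside 25.6% and 25.3%. The median difference of the members was 0.03, beside -0.05 over all genes. Of all genes 37 rose and 94 fell, and once each array was centred on a common median, 101 rose and 133 fell. The members without overlap were 8 on that scale, 6 higher and 2 lower, beside 20.4% of all genes. Of the 2 genes that the rule leaves out, the ligand Wnt5a fell by 2.32 (SE 0.19, adjusted p of 0.00139). Rspo3, whose R-spondin protein enhances Wnt signals, fell by 2.64 (SE 0.29, adjusted p of 0.00722).

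**Figure D1:**
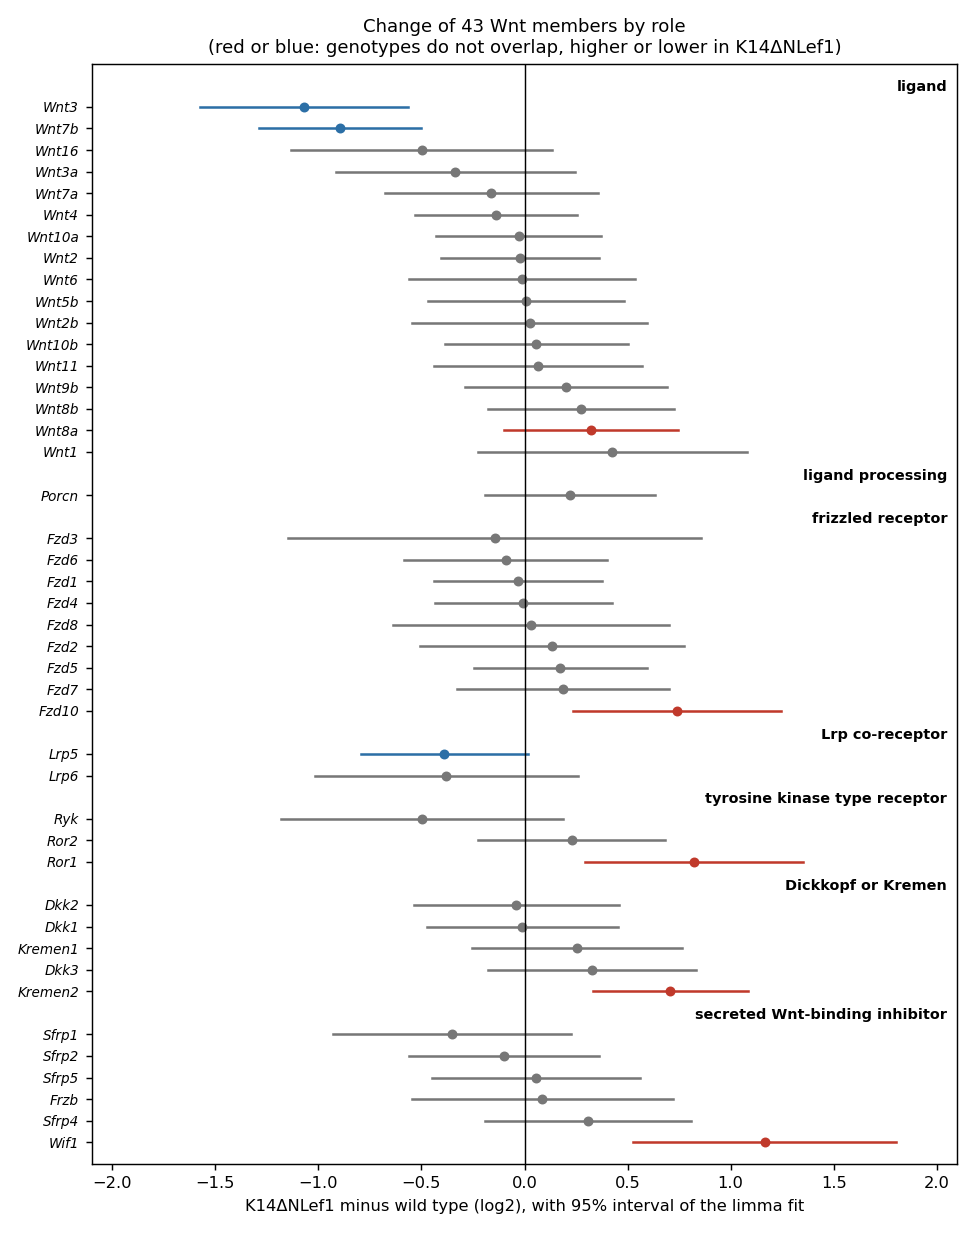
The difference of each of the 43 members (K14ΔNLef1 minus wild type, log2, x axis) is drawn as a point with its 95% interval from the limma fit, grouped by role. Coloured points are the 8 members whose genotypes did not overlap, from Wnt3 at -1.07 to Wif1 at 1.16. The intervals of Lrp5 and Wnt8a among them span 0, as do those of the other 35 members.

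Wnt7b, a ligand made by keratinocytes of the epidermis and hair follicle, was at 6.61, 6.47 and 6.63 on K14ΔNLef1 replicates 1, 2 and 3, against 7.38, 7.63 and 7.38 on the wild type replicates. The 3 K14ΔNLef1 arrays lay close together and all below the wild type arrays. The difference was -0.89 (SE 0.17, 95% interval -1.29 to -0.50), with an adjusted p of 0.0578. With K14ΔNLef1 replicate 1 left out, where 2.12% of all genes passed, Wnt7b was the 1 member that passed, with -0.91 and an adjusted p of 0.0387. In the other 5 fits that leave out an array it did not pass, and its adjusted p reached 0.252.

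Wnt3, a ligand of the canonical pathway, had values of 7.17, 7.01 and 6.95 on the K14ΔNLef1 arrays, against 8.53, 7.89 and 7.90 on the wild type arrays. Wild type replicate 1 stood above the others, and without it the difference described next was -0.86. The difference was -1.07 (SE 0.22, 95% interval -1.58 to -0.56), with an adjusted p of 0.0714. Over the 6 fits that omit an array it lay between 0.0625 and 0.242.

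The other 15 ligands were nearer to 0. Of the 17 ligands in all, 8 were higher and 9 lower, with a median difference of -0.01. Wnt10b, which is known to act when hair growth starts, was at 8.14, 8.01 and 7.62 in K14ΔNLef1, against 7.97, 7.82 and 7.82 in wild type. These ranges overlapped, and the 95% interval of the difference was -0.39 to 0.50. Its relative Wnt10a had an interval of -0.43 to 0.37, and Wnt4, also known as a ligand of the epidermis, of -0.53 to 0.25. Wnt16 had the third lowest ligand difference, -0.50, with wild type values spread from 6.85 to 7.84. Wnt1 had the highest ligand difference, 0.43, on 2 probe sets and with wild type values spread from 4.71 to 5.79. Wnt8b and Wnt9b differed by 0.28 and 0.20, and Wnt3a and Wnt7a by -0.34 and -0.16. The 5 ligands Wnt2, Wnt2b, Wnt5b, Wnt6 and Wnt11 lay between -0.02 and 0.06. Wnt8a was higher on each K14ΔNLef1 array than on any wild type array, at 6.84, 7.19 and 6.93 in K14ΔNLef1, against 6.60, 6.55 and 6.84 in wild type. The nearest values of the genotypes were almost equal, and the adjusted p was 0.568. Porcn, the enzyme that attaches the lipid to Wnt proteins, differed by 0.22 (adjusted p of 0.693).

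Among the 9 Frizzled receptors, Fzd10 had the largest difference. It was at 8.32, 7.93 and 8.64 in K14ΔNLef1, against 7.65, 7.64 and 7.38 in wild type. K14ΔNLef1 replicate 2 lay nearest to wild type. The difference was 0.74 (SE 0.22), with an adjusted p of 0.219. The other 8 receptors, Fzd1 to Fzd8, differed by -0.15 to 0.19, with Fzd7 at 0.19, Fzd5 at 0.17 and Fzd2 at 0.13. Fzd6, a receptor known for hair orientation, was at 8.62, 9.23 and 9.20 in K14ΔNLef1, against 9.20, 8.99 and 9.13 in wild type, and K14ΔNLef1 replicate 1 was the low one. Fzd3 showed the largest spread of all members, with 6.91, 8.21 and 8.69 in K14ΔNLef1 (SD 0.92), against 8.42, 7.65 and 8.18 in wild type (SD 0.40).

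Both Lrp co-receptors were lower on average. Lrp5 was at 7.91, 7.78 and 8.11 in K14ΔNLef1, against 8.21, 8.32 and 8.44 in wild type, without overlap, but the difference of -0.39 had an interval that reached 0.02 and an adjusted p of 0.451. Of its 26 probe sets 4 were higher, among them the brightest, by 0.07. Lrp6 was at 8.04, 8.79 and 9.06 in K14ΔNLef1, against 9.25, 8.94 and 8.84 in wild type, where again K14ΔNLef1 replicate 1 was far below the rest.

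Ror1, a receptor with a tyrosine kinase domain that binds Wnt5a, was at 7.25, 7.36 and 6.70 in K14ΔNLef1, against 6.46, 6.35 and 6.03 in wild type. Both genotypes had their lowest value on replicate 3. The difference was 0.82 (SE 0.23), with an adjusted p of 0.191, and all 9 of its probe sets were higher. Ror2, its closest relative, differed by 0.23 (95% interval -0.23 to 0.68), and Ryk by -0.50, with K14ΔNLef1 values of 8.02, 8.85 and 9.18.

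Kremen2, a receptor for Dickkopf proteins, was at 7.88, 7.66 and 7.75 in K14ΔNLef1, against 7.06, 7.02 and 7.09 in wild type. Both genotypes were tight, with SDs of 0.11 and 0.04. The difference was 0.71 (SE 0.16), with an adjusted p of 0.110. Over the fits that omit an array it lay between 0.0668 and 0.387. Kremen1 differed by 0.26 (95% interval -0.25 to 0.77). The Dickkopf gene Dkk1, a known target of Wnt signalling and an inhibitor of Lrp5 and Lrp6, averaged 6.84 ± 0.29 in K14ΔNLef1 and 6.85 ± 0.12 in wild type (SD, n = 3 each), with an interval of -0.47 to 0.45. Dkk2 and Dkk3 differed by -0.04 and 0.33.

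Wif1, a secreted inhibitor that binds Wnt proteins and is known as a marker of hair follicle stem cells, had the largest positive difference of the 43. It was at 6.69, 6.52 and 7.50 in K14ΔNLef1, against 5.79, 5.49 and 5.93 in wild type. K14ΔNLef1 replicate 3 was well above the other arrays. The difference was 1.16 (SE 0.28, 2.24-fold), with an adjusted p of 0.125, and without K14ΔNLef1 replicate 3 it was 0.87. The 5 measured markers of the hair follicle bulge and germ averaged 7.90, 8.11 and 8.32 on K14ΔNLef1 replicates 1, 2 and 3, also highest on replicate 3, and 8.02, 7.77 and 7.95 on the wild type arrays. The sebocyte markers given above averaged highest on K14ΔNLef1 replicate 3 too. Their averages were separate between genotypes, with Pparg differing most, by 1.05, and Scd1 and Fasn by -0.01 and -0.04. The bulge averages overlapped, though Cd34 (0.61) and Sox9 (0.30) did not, and Nfatc1 differed by -0.39. No gene of either list passed the test, and the part of these cells in the Wif1 value was not tested. The other Wnt-binding inhibitors, Sfrp1, Sfrp2, Sfrp4, Sfrp5 and Frzb, differed by -0.35 to 0.31.

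**Figure D2:**
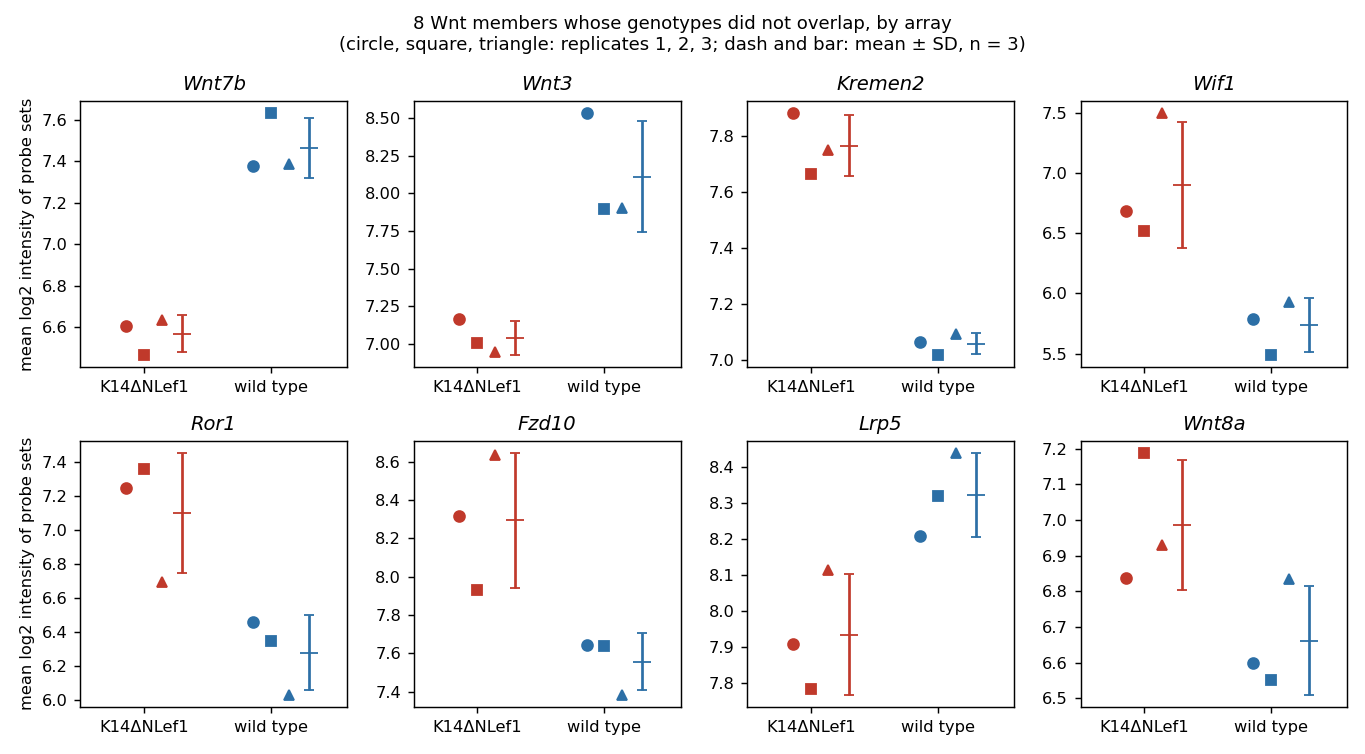
Mean log2 intensity (y axis, each panel with its own range) is shown on each array for the 8 members whose genotypes did not overlap, K14ΔNLef1 on the left of each panel and wild type on the right, with mean ± SD (n = 3). The gap between genotypes is wider than the spread within them for Wnt7b, Wnt3 and Kremen2, and narrow for Lrp5 and Wnt8a.

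The precision was enough to bound the gene mean of most members on these arrays. For 32 of the 43, or 74.4%, the 95% interval of the difference lay within 2-fold in both directions, the same share as over all genes (74.4%). Of the 43 members 23 were below the median gene in intensity. The intervals bound the averaged signal and not the change of RNA behind a dim signal, and they are not adjusted for the number of genes. The widest was that of Fzd3, from -1.15 to 0.85.

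The plot of probe set differences shows the spread within 6 of the members. No member probe set passed when each probe set was tested (limma, over 109751 probe sets, of which 0.19% passed). In Wnt7b all 11 probe sets were lower, with differences from -1.87 to -0.15. In 7 of them the genotypes did not overlap, beside 14.6% of all probe sets. The gene mean for which Wnt7b was described averages these same probe sets, so they are not separate evidence. The brightest of them, probe set 4438618, was at 8.82, 9.33 and 9.25 in K14ΔNLef1, against 11.15, 11.09 and 10.78 in wild type, a difference of -1.87. The brightest Wnt3 probe set, 4663215, was at 7.99, 8.99 and 8.69 in K14ΔNLef1, against 10.93, 10.04 and 10.83 in wild type, a difference of -2.04, while the highest of the 4 Wnt3 probe set differences was 0.13. Other summaries moved the members in both directions. The brightest probe set gave larger differences than the gene mean for Wnt7b and Wnt3, and smaller ones for Kremen2 (0.45, adjusted p of 0.683) and Fzd10 (0.47, adjusted p of 0.738). With the median of the probe sets in place of the mean, the difference was -0.68 for Wnt3 (adjusted p of 0.361) and 0.49 for Ror1 (adjusted p of 0.633).

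In Kremen2 all 10 probe sets were higher, but 8 of them by 0.17 to 0.76 and the other pair by 1.30 and 2.37. The probe set with 2.37 was at 8.29, 8.55 and 8.72 in K14ΔNLef1, against 6.86, 5.92 and 5.67 in wild type. In Wif1 9 of 10 probe sets were higher, from 0.30 to 2.36. Unequal change was tested for each gene with 3 or more probe sets (diffSplice, F test over 9818 genes, of which 0.774% passed), and no member passed. Kremen2 came nearest, with an adjusted p of 0.0731, then Wnt3 with 0.207.

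**Figure D3:**
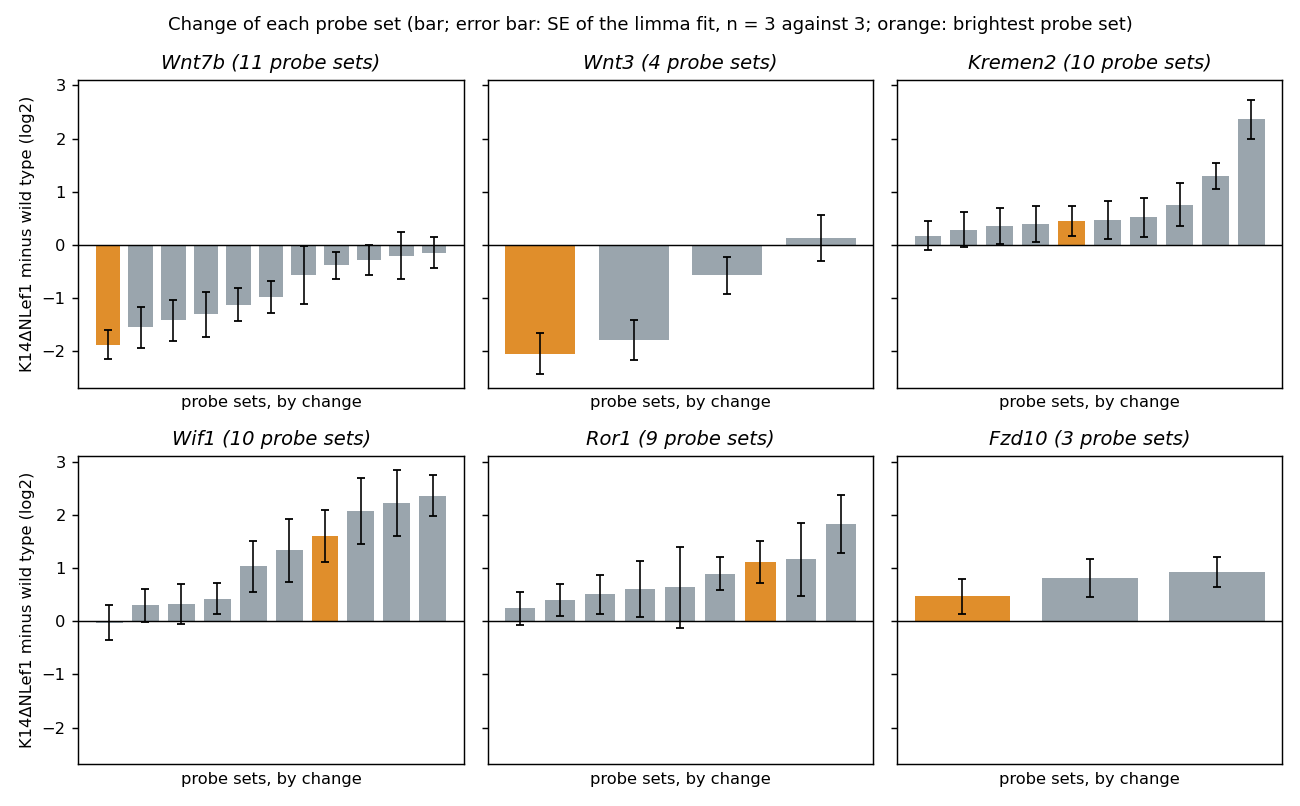
Bars give the log2 difference (K14ΔNLef1 minus wild type) of every probe set of 6 members, ordered by size, with the SE of the fit, and the brightest probe set of each gene is orange. All Wnt7b bars point down and all Kremen2, Ror1 and Fzd10 bars point up, while Wnt3 and Wif1 each hold 1 probe set near 0 on the other side.

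When each gene was read by its brightest probe set alone, an alternative chosen after seeing the data, 0.594% of all genes passed. Wnt7b was the 1 member that passed (adjusted p of 0.0207), and Wnt3 came next (0.0569). The genotypes did not overlap for 8 members, beside 15% of all genes. Those were Wnt7b, Wnt3 and Sfrp1, which were lower, and Wnt9b, Wif1, Ror1, Wnt1 and Kremen2, which were higher. Wnt9b, another ligand, was at 8.88, 8.55 and 9.19 on its brightest probe set in K14ΔNLef1, against 7.75, 8.18 and 7.93 in wild type. Its gene mean over 5 probe sets overlapped between genotypes and differed by 0.20.

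The K14ΔNLef1 arrays were not alike for the members. Replicate 1 gave the lowest K14ΔNLef1 value for 10 members and the highest for 21. Among the 20 members at or above the median gene in intensity it was lowest for 7 and highest for 9. Among the 23 below it was lowest for 3 and highest for 12. No such count over all genes is given here. The low ones included Fzd3, Lrp6 and Fzd6, which differed from the mean of replicates 2 and 3 by -1.55, -0.88 and -0.60. The high ones included Fzd8, Frzb and Wnt3a, which differed by 0.97, 0.79 and 0.76. The median member lay 0.17, 0.01 and 0.02 above its wild type mean on K14ΔNLef1 replicates 1, 2 and 3. Without replicate 1 the median difference of the members was -0.04.

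**Figure D4:**
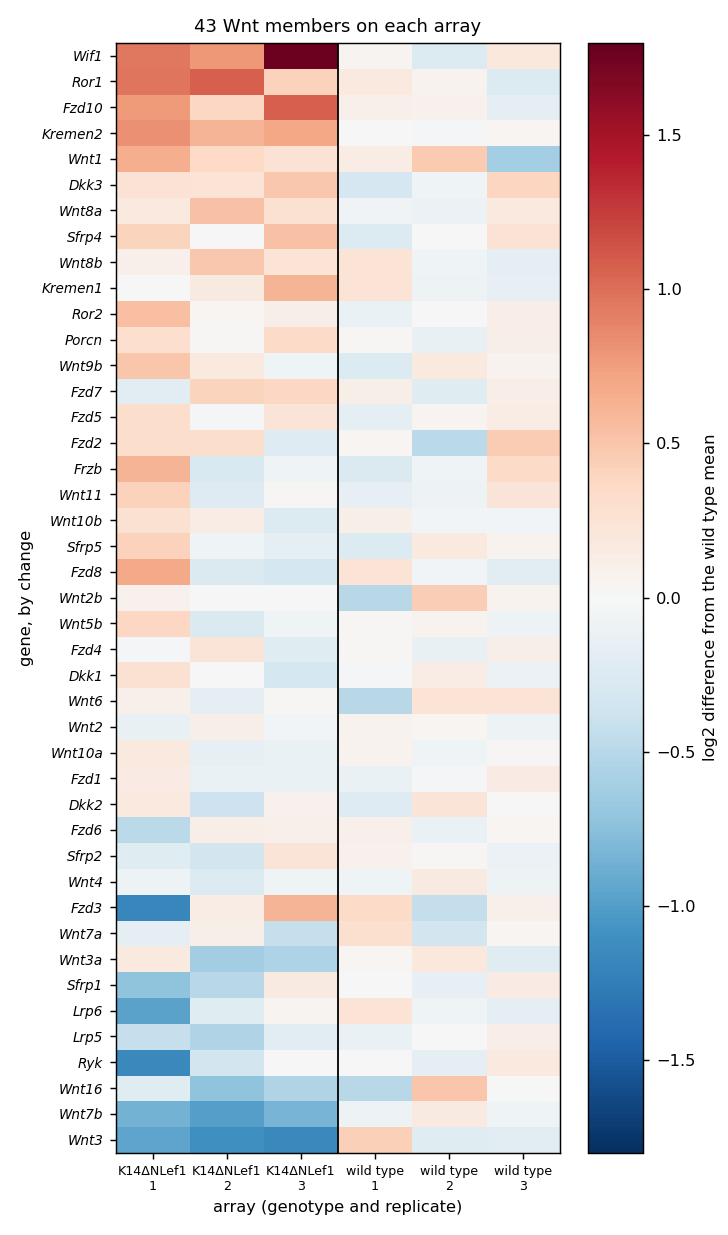
Each cell is the log2 difference of a member on an array from its wild type mean, with the K14ΔNLef1 arrays left of the wild type arrays and the genes ordered by change. Wif1, Ror1, Fzd10 and Kremen2 at the top and Wnt7b and Wnt3 at the bottom keep 1 colour on all K14ΔNLef1 arrays, and Fzd3, Ryk and Lrp6 are dark on replicate 1.

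The rest of the pathway was read from a list of 60 further Wnt pathway genes, of which 41 were measured. A single one passed, Sostdc1, whose secreted product binds BMPs and Wnt co-receptors and inhibits both pathways, which fell by 1.83 (SE 0.25, adjusted p of 0.0170). Of the 6 fits that omit an array it passed in 2, those without K14ΔNLef1 replicate 1 or 2, and its adjusted p was 0.0552 with the replicate number as a block. Among the lower genes the next smallest p was that of Axin2, a feedback inhibitor and target of the pathway, at 8.13, 8.55 and 8.51 in K14ΔNLef1, against 9.01, 9.13 and 9.04 in wild type. Its genotypes did not overlap, and the difference was -0.67 with an adjusted p of 0.186. The higher genes with the smallest p were Ctnnb1, which encodes beta-catenin, with 0.53 (adjusted p of 0.288), and Lypd6, a surface protein that enhances Wnt signalling, with 0.40 (0.424). Of the 41, 29 were lower and 12 higher, with a median of -0.21, beside -0.05 over all genes. Most of the list is bright: 30 of the 41 were at or above the median gene, and these had a median of -0.23, beside -0.20 over all genes that bright. With each array centred on a common median, 23 were lower and 18 higher, with a median of -0.10, and without K14ΔNLef1 replicate 1 the median was -0.06. The genotypes did not overlap for 10 of the 41, or 24.4%, beside 18.7% of all genes. Among the 30 brighter genes it was 8, or 26.7%, beside 22.0% of all genes that bright.

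Lef1 and the Tcf factors bind a short DNA motif, searched here as CTTTGAA, also as CTTTGAT, then as CTTTGTA or also as CTTTGTT, on both strands, in the promoter sequences of RefSeq (GRCm38.p6, 250 bases before to 50 after each start). Of the 43 members 29 had a promoter there, and 5 of them, or 17.2%, held a match, beside 18.9% of the 27025 genes with a promoter (16.9% of 32851 promoters, since a gene can have several). The stretches with matches are shown to set the sequences beside the values, 5′ to 3′ on the gene's strand, with the motif or its reverse complement in capitals. Of the 6 members with the smallest p, 5 had a promoter and 1 of them, Wnt3, held a match, 19 bases after the start site. Dkk1 held 2 matches, at -117 and -98 from its start, and its level differed by -0.01. A match is a description of the letters and not evidence of binding.
Wnt3 (chr11:103774182-103774211, plus strand): cctcaagtggaCTTTGTTccaactattggg
Dkk1, first match (chr19:30549595-30549624, minus strand): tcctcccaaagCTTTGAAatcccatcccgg
Dkk1, second match (chr19:30549576-30549605, minus strand): tcccatcccggCTTTGTTgtcttccctgag
Fzd7 (chr1:59482006-59482035, plus strand): tccacagagaaAACAAAGcgcgctattgga
Wnt11 (chr7:98835050-98835079, plus strand): gacgtgggcggATCAAAGcgacggtccgcg
Wnt5b (chr6:119449439-119449468, minus strand): agtaagtctctCTTTGATctgctccctgtc
The differences of the other 3 genes were 0.19 for Fzd7, 0.06 for Wnt11 and 0.01 for Wnt5b, all with adjusted p of 0.800 or more.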

How the data were processed

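The deposited values are linear intensity, for each probe set on each array. The submitters' processing notes name Affymetrix Power Tools, the RMA method and build mm9; tool versions and any filter are not given in the sources used here. Per the labels' protocols, cDNA was amplified from small amounts of RNA before hybridisation. Intensity was turned to log2. Of 114330 probe sets, the 109751 with 1 gene symbol in the platform annotation were used, older symbols were updated through the GRCm38.p6 gene table, and the log2 values of a gene's probe sets were averaged with no filter on low values. For the 11280 genes, lmFit and eBayes of limma 3.58.1 (R 4.3.3) compared K14ΔNLef1 with wild type. On simulated data for this comparison (11280 genes, 3 arrays against 3), 57 of 100 genes changed by a log2 of 1 passed, 100 of 100 changed by 2, and 12 unchanged genes did. The number of arrays limits the precision.

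The members and lists were chosen with earlier results of these data known. Values on every array were to be given for members that passed, that passed with an array left out, or whose genotypes did not overlap at 1.5-fold or more, and further members shown this way were picked for their role or spread after their values were seen. Of the pathway list, genes that passed and the 2 with the smallest p in each direction were named. Alternatives changed the summary of probe sets, filters, scaling, variance model, array weights, threshold, blocks and the arrays used. Figures were drawn with Python 3.11.15 and matplotlib 3.10.9.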

Additional observations from a re-analysis of the deposited data

How the results depend on the processing

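The number of members that passed was 0 with all arrays as deposited. It was 1 (Wnt7b) with trended and robust moderation, without K14ΔNLef1 replicate 1 (also with the other arrays quantile normalized) and with the brightest probe set. It was 1 (Wif1, adjusted p of 0.032 and 0.0404) with arrays shifted to the same median or quantile normalized, and 2 (Wnt7b and Wnt3) with the brighter probe sets alone or at a threshold of 0.1. With array weights it was 8. Those weights ranged from 0.150 for K14ΔNLef1 replicate 1 to 5.18 for replicate 2, and 1296 genes passed in all. With 1 array left out the range was 0 to 1. Over all genes, 131 passed, against 234 and 201 with the scalings, 236 at 0.1 and 67 with the brightest probe set. The count was 238 without K14ΔNLef1 replicate 1 after quantile normalization, and 28 to 239 with 1 array left out. With trended and robust moderation 148 genes passed (1.31%). With the brighter probe sets alone it was 158 of 9005 genes (1.75%), and 34 members were measured there. The same-median scaling moved the median of all genes by 0.11 and the members' median to 0.13. It put 32 of 43 members higher, against 23. Members without overlap were 4 of 20 among brighter genes, beside 22.0% of all genes that bright. They were 15 without K14ΔNLef1 replicate 1 after quantile normalization, beside 32.6% of all genes. With 1 array left out they were 9 to 16, beside 25.3% to 34.0% of all genes. Of the other pathway genes 4 passed with array weights, 0 with the brightest probe set and 0 to 1 with 1 array left out. After quantile normalization 1 member probe set (Kremen2) passed, beside 0.33% of all probe sets. With the replicate block 75 genes passed, of them 0 members and 0 other pathway genes. Deviations of same-numbered arrays from their genotype means had correlations over genes of -0.163, -0.172 and 0.036. The replicate numbers were not taken as pairs. With 3 arrays per genotype the deviations are tied to each other, so these correlations cannot exclude pairs. The sample descriptions also hold numbers that are adjacent between genotypes, and whether these mark pairs is not stated. Arrays so matched had correlations of 0.199, -0.075 and -0.007. With that matching as a block 91 genes passed, of them 0 members and 1 other pathway gene. Both block fits leave fewer degrees of freedom than the main fit. Lrp5 turned to 0.0668 on its brightest probe set. The 6 members nearest the threshold kept their sign in every alternative that measured them. Only other summaries of probe sets, filters or scalings could have turned it, since the genotypes of these 6 did not overlap. Of the 35 members outside the 8 without overlap, 24 changed sign under some alternative and 10 under a scaling.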
